A study of Homo sapiens with 3 samples.

Results

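The 4 RNAs described here do not, or only in part, carry the standard poly(A) tail, and were followed over 3 libraries of HEK293 cells: the nuclear long non-coding RNAs MALAT1 and NEAT1, the 28S ribosomal RNA row RNA28S5, and HIST1H4C, a replication-dependent gene for histone H4. They are the 4 of 6 named genes that have a row among the 17595 endogenous genes of the count table. The other 2, RNA18S5 and RNA45S5, have no row and were not analysed here. The genes were selected on their counts in the 3 libraries, for their differing patterns, so their differences between libraries are given as a description, with no test.

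HEK293 cells are a widely used human line that was derived from embryonic kidney with adenovirus DNA. All 3 libraries belong to 1 group, with no treatment or genetic change named in the labels, each made from 1000 lysed cells with RNA equal to 100 cells carried into 18 cycles of PCR. The libraries go here by their column index, 20, 21 or 23. No label says whether they came from separate cultures, so the spread between them may be technical. Reverse transcription started from an oligo(dT) primer with 30 T bases and a 2-base anchor, and only the 5′ ends of the products were sequenced.

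Most mRNAs are cut and given a long poly(A) tail, to which such a primer anneals. The RNAs here mature in other ways. The mature 3′ end of MALAT1 is made when RNase P cuts off a tRNA-like small RNA, and a triple helix that includes an encoded A-rich tract protects it. NEAT1 is the scaffold of nuclear paraspeckles and has 2 forms with a common 5′ end: a short one that is polyadenylated and a long one processed by RNase P. Replication-dependent histone mRNAs end after a conserved stem-loop bound by SLBP and are made in S phase. The 28S RNA is cut from a precursor made by RNA polymerase I.

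The sequence of 3 of the 4 genes was at hand in GENCODE v29, an annotation of GRCh38, whereas the counts were made on hg19 (GRCh37). The stretches below are shown because they are the A-richest 20 bases of each gene's longest annotated transcript, in capitals, as they would face an oligo(dT) primer.
HIST1H4C: tgagaacttcAAAAAACAAAAACAAAAAAA
MALAT1: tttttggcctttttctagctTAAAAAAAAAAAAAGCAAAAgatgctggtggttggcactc
NEAT1: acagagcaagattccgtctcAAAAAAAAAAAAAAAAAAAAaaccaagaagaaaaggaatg
All 3 transcripts have 1 exon on the plus strand. The HIST1H4C stretch (chr6:26104281-26104310) is the last 30 bases of the 435-base HIST1H4C transcript, in the 3′ UTR, and 18 of the 20 bases in capitals are A. The RefSeq model of the same gene runs 27 bases further, so the A-rich stretch is internal to it. The MALAT1 stretch (chr11:65506077-65506136) has 17 A in 20, with a run of 13. Its capitals end 353 bases before the annotated 3′ end of the 8708-base MALAT1 transcript. That annotated end need not be the mature end made by RNase P, so the distance to the mature end is not given by it. The capitals end with the letters AAAAAGCAAAA, as does the annotated end of long NEAT1 printed further below. Whether they are the encoded A-rich tract of the mature MALAT1 end was not tested. The NEAT1 stretch (chr11:65440823-65440882) lies only in the long, 22743-base form, inside a run of 22 A, and its capitals end 4678 bases before the 3′ end. The other 7 annotated NEAT1 transcripts, of 512 to 3524 bases, reach 9 to 14 A in 20.

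How common such stretches are depends on the transcript's length. Of 14254 genes of the table matched by name (81.0%), 10.95% had at least 18 A in 20 in their longest transcript, 17.3% at least 17 and 3.94% all 20. Among transcripts within 0.8 to 1.2 times the length of HIST1H4C, 6 of 205 (2.93%) had at least as many A as it has. For MALAT1 the same share was 39.2% of 1229 transcripts, and for NEAT1 it was 27.3% of 44. Stretches like these are rare in transcripts as short as HIST1H4C and common in those as long as MALAT1. Whether the primer annealed at these stretches was not tested.

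The 3′ ends of the annotated transcripts differ in other ways. The 2 lines below show the annotated end of long NEAT1, with its last 20 bases in capitals, and the stem-loop of another H4 gene, HIST1H4J, in capitals, as an example of the histone type of end.
NEAT1 long form end: ctgtgaaagaGTGAGCAGGAAAAAGCAAAA
HIST1H4J stem-loop: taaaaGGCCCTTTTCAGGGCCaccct
These are at chr11:65445511-65445540 and chr6:27824454-27824479 of GRCh38, both on the plus strand. The histone stem-loop motif, searched on the transcript strand, was found in the longest transcript of 26 matched genes (0.182%), 13 of them among the other 35 replication-dependent histone rows. It was not found in the GENCODE model of HIST1H4C, which ends before the RefSeq end. The poly(A) signal AATAAA was searched on the same strand in the last 40 bases. It was in 56.1% of the matched genes and in 10 of the other 35 replication-dependent histone transcripts. It was also at the annotated end of the longest MALAT1 transcript, which need not be the mature end, and in 1 of the shorter NEAT1 forms. Long NEAT1 and the GENCODE model of HIST1H4C did not have it. A match describes letters, not a site in use.

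The libraries were of similar depth, with 1330877 to 1545594 endogenous counts and 3.49% to 3.85% of all counts on spiked control RNAs. Levels are counts per 1000000 endogenous counts (CPM), and 1 count equals 0.647 to 0.751 CPM. Intervals are exact 95% Poisson intervals and cover counting error only. Of 9 genes fixed as marks of HEK293, 7 averaged at least 10 CPM, while PAX2 (1 count in all) and LHX1 (5.98 CPM) did not. Of 8 marks of other cell types 0 did, the highest being COL1A1 at 3.92 CPM. Genes that differed between libraries were called with a 2-sided exact binomial test per gene and pair, adjusted by Benjamini-Hochberg over all genes and the 3 pairs. It covers counting error only, compares libraries, not conditions, and called 64 of 11424 genes, or 0.56%. The adjusted p given for a gene is the lowest of its 3 pairs. MALAT1, RNA28S5 and HIST1H4C are among the 64 and NEAT1 is not, which restates how they were chosen. The call of MALAT1 is lost without library 20 and that of RNA28S5 without library 23, while HIST1H4C was called whichever library was left out.

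HIST1H4C was the most abundant of the 4 RNAs. Histone H4 is a core protein of the nucleosome, made when DNA is copied. The gene had 2599 counts in library 20, 1585 in library 21 and 1030 in library 23. As levels these were 1761 CPM (interval 1694 to 1830), 1191 CPM (1133 to 1251) and 666 CPM (626 to 708). The intervals of the 3 libraries do not overlap, and library 20 stood 2.64 times above library 23 (interval of the ratio 2.46 to 2.84). The mean was 1206 ± 548 CPM (SD, n = 3), rank 133 of 17595. Among the 764 genes with at least 1000 pooled counts, this ratio was the largest, against a median of 1.08. The next were MT-ND2 at 1.68, MT-CO3 at 1.61 and MT-ATP6 at 1.59, all 3 highest in library 23, where HIST1H4C was lowest.

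**Figure D1:**
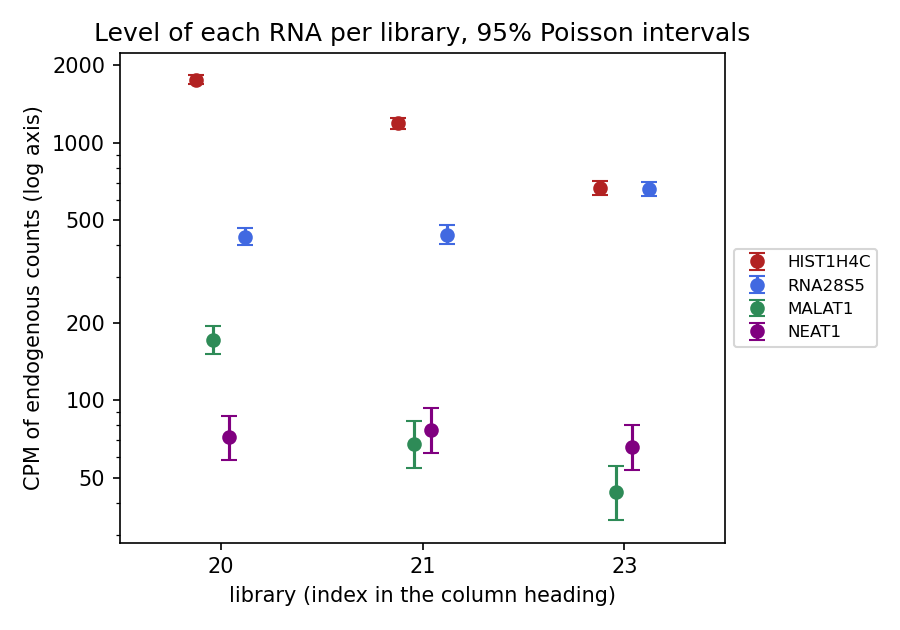
Level of each RNA in libraries 20, 21 and 23, in CPM of endogenous counts on a log axis; points are single libraries and bars are exact 95% Poisson intervals. HIST1H4C lies between 1761 and 666 CPM and MALAT1 between 171 and 44.0 CPM, both highest in library 20, while NEAT1 lies between 66.0 and 76.6 CPM.

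The other replication-dependent histone genes were few in counts, and HIST1H2BK held a large part of them. All 35 rows summed to 199 CPM in library 20, 187 in library 21 and 193 in library 23, or 193 ± 6.07 CPM (SD, n = 3). The highest sum was 1.06 times the lowest. Without HIST1H2BK, a row left out only once its values were known, the sums were 126 CPM in library 20 (interval 109 to 146), 104 in library 21 (87.1 to 123) and 104.2 in library 23 (88.7 to 122). These were highest in library 20, as for HIST1H4C, by 1.22 times, with overlapping intervals. Of these 35 rows 14 had the 10 pooled counts needed for the test and 0 were called, beside 0.56% of all genes, but few were counted deeply enough for a difference to be seen. The median of their log2 deviations from each gene's own mean was 0.15 in library 20, -0.04 in library 21 and 0.02 in library 23, beside -0.01, -0.01 and 0.03 over all genes tested. For HIST1H4C the deviations were 0.66, 0.09 and -0.75. HIST1H2BK, an H2B gene, was the best counted, with 73.2, 83.4 and 88.6 CPM in libraries 20, 21 and 23, lowest where HIST1H4C was highest (exact test, adjusted p = 0.87). HIST3H2A, an H2A gene, had 25, 13 and 19 counts (exact test, adjusted p = 0.83). HIST1H3B, an H3 gene, had 24, 9 and 15 counts (16.3, 6.76 and 9.71 CPM), with an adjusted p of 0.59 by the exact test. HIST3H2A and HIST1H3B were highest in library 20 like HIST1H4C. HIST1H1C, an H1 gene, was lowest there, with 15, 19 and 19 counts (10.2, 14.3 and 12.3 CPM; exact test, adjusted p = 0.998).

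HIST1H4C took most counts of its class in each library. It made up 89.8% of all replication-dependent histone counts in library 20 (95% Wilson interval 88.7% to 90.9%), 86.4% in library 21 (84.8% to 87.9%) and 77.6% in library 23 (75.2% to 79.7%). The other 7 H4 rows had 28 counts together in all libraries, and 29 of the 35 other histone rows averaged under 10 CPM, with a median of 1.82 CPM. Apart from HIST1H2BK at 81.7 ± 7.86 CPM, the highest was HIST3H2A at 13.0 ± 3.64 CPM (SD, n = 3). H4 genes encode near-identical products. How alike their transcripts are, and how the counting split reads among them, was not examined here.

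HIST1H4C also had the A-richest stretch of the histone transcripts. The longest transcripts of the other 35 reached 8 to 15 A in any 20 bases, with a median of 11, against 18 for HIST1H4C. HIST1H2BK, next in level, had 10. Many of these models hold little beyond the coding part, so stretches beyond their annotated ends were not seen. This is a description of 1 gene beside 35, and the part of the stretch in the level was not tested.

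**Figure D2:**
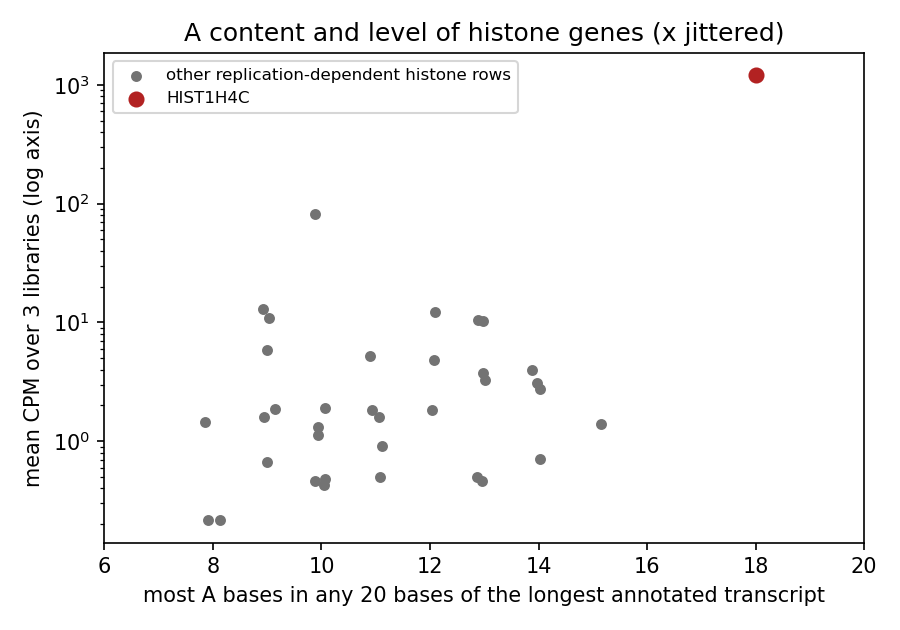
Most A bases in any 20 bases of the longest annotated transcript (x axis, jittered sideways) against mean CPM over 3 libraries (y axis, log) for the 36 replication-dependent histone rows. HIST1H4C stands alone at 18 A and 1206 CPM; the other points lie at 15 A or fewer and at 81.7 CPM or less.

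Genes around histone supply had 1 call, beside 0.56% of all genes, which is no result about them. Of 19 genes for histone mRNA processing and transcription 0 were called, and their sum was 2666 to 2681 CPM. SLBP, whose protein binds the stem-loop, had 163, 188 and 192 CPM in libraries 20, 21 and 23, lowest in library 20, with an adjusted p of 0.76 by the exact test. Of 40 S phase genes 1 was called, or 2 with median-of-ratios size factors. The 1 was CLSPN, an adaptor of the replication checkpoint, with 65.7, 50.3 and 29.8 CPM, the same order as HIST1H4C (exact test, adjusted p = 0.0041). This call rests on the pair of libraries 20 and 23 and is lost without either. The summed S phase genes lay between 4666 and 4743 CPM. Their median log2 deviations were 0.04, -0.03 and -0.0042 in libraries 20, 21 and 23. The 4 most abundant of them differed in order. PCNA, the sliding clamp of replication, had 328, 325 and 360 CPM, and RPA2 had 321, 308 and 339 CPM. Both were highest in library 23 (exact test, adjusted p = 0.83 and 0.87). GMNN had 457, 401 and 380 CPM, and GINS2 had 312, 313 and 265 CPM. Both were lowest in library 23 (exact test, adjusted p = 0.18 and 0.53). Of 51 G2/M genes 0 were called, with sums of 5510 to 5663 CPM, and 2 were called with spike totals. In bulk samples, fewer cells in a phase and less RNA per cell cannot be told apart. The 12 replication-independent histone genes, whose mRNAs are polyadenylated, had 0 calls among the 11 tested and summed to 4331 to 4616 CPM. H2AFZ, the H2A.Z gene that leads them, had 2595, 2605 and 2387 CPM (exact test, adjusted p = 0.072). With TMM scaling H2AFZ, lowest in library 23, passed the threshold; the list had 1 call there and by a chi-square test, and 2 with median-of-ratios size factors.

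MALAT1, a very abundant RNA of nuclear speckles in many tissues, had 253 counts in library 20, 90 in library 21 and 68 in library 23. Its levels were 171 CPM (interval 151 to 194), 67.6 CPM (54.4 to 83.1) and 44.0 CPM (34.2 to 55.8). Library 20 stood apart, while the intervals of libraries 21 and 23 overlap. The mean was 94.4 ± 67.8 CPM (SD, n = 3), rank 1808. The ratio of library 20 to library 23 was 3.90 (interval 2.97 to 5.17), the largest among the 5204 genes with at least 100 pooled counts, where the median ratio was 1.19. HIST1H4C had rank 3 in the same set. Without library 20 the ratio of MALAT1 was 1.54 and its mean 55.8 CPM.

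NEAT1 had nearly the same count in each library, 106, 102 and 102. Its levels of 71.8 CPM (interval 58.8 to 86.9), 76.6 CPM (62.5 to 93.0) and 66.0 CPM (53.8 to 80.1) overlap between all libraries. The mean was 71.5 ± 5.33 CPM, and its ratio of 1.16 (0.874 to 1.54) ranked 3006 of 5204, so that 42.2% of these genes varied less. The counts are per gene, with no read positions, so they cannot be assigned to the short or the long form. MALAT1 and NEAT1 are neighbours on chromosome 11, yet MALAT1 was 2.39 times NEAT1 in library 20, 0.882 times in library 21 and 0.667 times in library 23. Over the libraries their log2 ratio was 0.16 ± 0.97 (SD, n = 3). MALAT1 had more counts than NEAT1 in library 20 and fewer in libraries 21 and 23. The intervals of the 2 RNAs overlap in libraries 21 and 23, only slightly in 23.

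Genes tied to MALAT1 and NEAT1 were set beside them. They had 0 calls, beside 0.56% of all genes, which in lists this short is no result about them. Of 15 paraspeckle protein genes 0 were called. NONO, a core paraspeckle protein, had 258, 271 and 266 CPM in libraries 20, 21 and 23, and its partner SFPQ had 220, 220 and 255 CPM (exact test, adjusted p = 1 and 0.70). Their list summed to 2181.9, 2329 and 2439 CPM, lowest in library 20. Of 15 nuclear speckle genes 0 were called, with sums of 4723 to 4787 CPM, and 2 were called when scaled by spike totals. SRSF3, a splicing factor, led at 1073 ± 47.4 CPM. Among 12 listed genes of RNase P and of MALAT1 3′ end handling 0 were called, and POP4, a protein subunit of RNase P, had 159, 137 and 124.2 CPM (exact test, adjusted p = 0.52). Of 15 listed other long non-coding RNAs 12 were tested and 0 called. XIST, which coats the inactive X chromosome, is outside this list and was noticed after its values were seen: it was called, at 762, 731 and 884 CPM (exact test, adjusted p = 0.0046), highest in library 23. In the list, GAS5, a host of small nucleolar RNAs, had 231, 244 and 249 CPM, and DANCR had 229, 231 and 252 CPM (exact test, adjusted p = 0.98 and 0.91). SNHG1 had 130, 122 and 140 CPM and CRNDE had 92.2, 98.4 and 89.9 CPM (exact test, adjusted p = 0.91 and 1), so the lowest library differed from gene to gene.

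**Figure D3:**
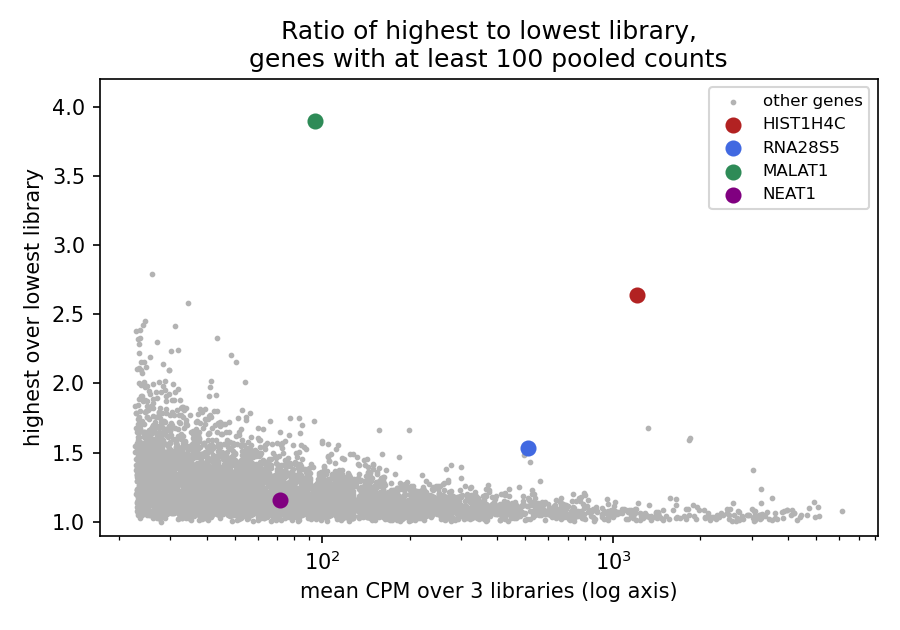
Mean CPM over 3 libraries (x axis, log) against the ratio of the highest to the lowest library (y axis) for 5204 genes with at least 100 pooled counts; each grey point is a gene. MALAT1 at 3.90 and HIST1H4C at 2.64 lie above the other genes of like level, RNA28S5 at 1.53 has rank 5 among the 764 genes with at least 1000 pooled counts, and NEAT1 at 1.16 lies within the cloud.

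RNA28S5, the RNA of the large ribosomal subunit, had 638 counts in library 20, 586 in library 21 and 1024 in library 23. Its levels were 432 CPM (interval 399 to 467), 440 CPM (405 to 477) and 663 CPM (623 to 704). Libraries 20 and 21 overlap and library 23 was higher, by 1.53 times over library 20 (1.39 to 1.69). This ratio had rank 5 among the 764 genes with at least 1000 pooled counts and rank 407 among the 5204 with at least 100. Without library 23 it was 1.02. The mean was 512 ± 131 CPM (SD, n = 3), rank 328. Genes of RNA polymerase I and rRNA processing gave 1 call among 29, beside 0.56% of all genes, and 2 with median-of-ratios size factors or 3 with spike totals. The 1 was the nucleolar chaperone NPM1, at 5136, 5311 and 4785 CPM, lowest in library 23 (exact test, adjusted p = 5.7e-07), a call lost without library 23. The nucleolar protein gene NCL had 468, 501 and 496 CPM (exact test, adjusted p = 0.91). Ribosomal DNA repeats are near-identical, and how the counting treated reads of several copies is not given in the sources used here.

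Mitochondrial RNAs, which get short tails, were often called between the libraries. Of 13 mitochondrial mRNA rows 10 were called, beside 0.56% of all genes. These rows are counted deeply, with a median of 2588 CPM beside 19.6 CPM over all genes tested, so small differences can be called. MT-CO2 was called at a highest-to-lowest ratio of 1.08 and MT-CYB at 1.10, whereas MT-ND2 reached 1.68. The median ratio among genes with at least 1000 pooled counts was 1.08. MT-CO3, a subunit of cytochrome c oxidase, had 1479, 1682 and 2375 CPM in libraries 20, 21 and 23 (exact test, adjusted p = 1.0e-66). MT-ND2, a complex I subunit, had 1029, 1195 and 1729 CPM (exact test, adjusted p = 6.9e-57). Both were highest in library 23, as was RNA28S5. MT-ND4L went the other way, with 3434, 3466 and 2806 CPM, and so did MT-ATP8, with 4974, 5207 and 4546 CPM (exact test, adjusted p = 5.1e-20 and 2.4e-12). Several of these genes overlap, so the split of their reads is uncertain. Of the 2 mitochondrial rRNAs, MT-RNR2 was called and highest in library 20, at 3451, 3212 and 3042 CPM (exact test, adjusted p = 6.1e-07, lost without library 20 or 23), whereas RNA28S5 was highest in library 23. MT-RNR1, with 1645, 1628 and 1673 CPM, was not called (adjusted p = 0.98).

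Small non-coding RNAs without a poly(A) tail were mostly counted too rarely to compare. Of 181 rows 23 were tested and 1 was called, beside 0.56% of all genes, or 2 with spike totals or a chi-square test. The 1 was RN7SL1, the RNA of the signal recognition particle. It had 292, 158 and 238 counts, or 198, 119 and 154 CPM in libraries 20, 21 and 23 (exact test, adjusted p = 0.00014). This call rests on libraries 20 and 21 and is lost without either. It was highest in library 20 like MALAT1 and HIST1H4C, but lowest in library 21. Its near-identical copy RN7SL2 had 94.2, 73.6 and 74.4 CPM (adjusted p = 0.77), and reads of the copies may have been split. SCARNA22, a guide RNA of Cajal bodies, had 76.6, 58.6 and 66.6 CPM (exact test, adjusted p = 0.77). RN7SL1 reached 9 A in 20 and MT-RNR2 reached 14, both below the 3 stretches printed above. When edgeR's goodness of fit allowed for the common variation between libraries, 6 of 11424 genes (0.0525%) were called. They were MT-ATP6, MT-CO3, MT-ND2 and the 3 RNAs selected for differing, for which the call restates how they were chosen. CLSPN, NPM1, MT-RNR2 and RN7SL1 were not among them.

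**Figure D4:**
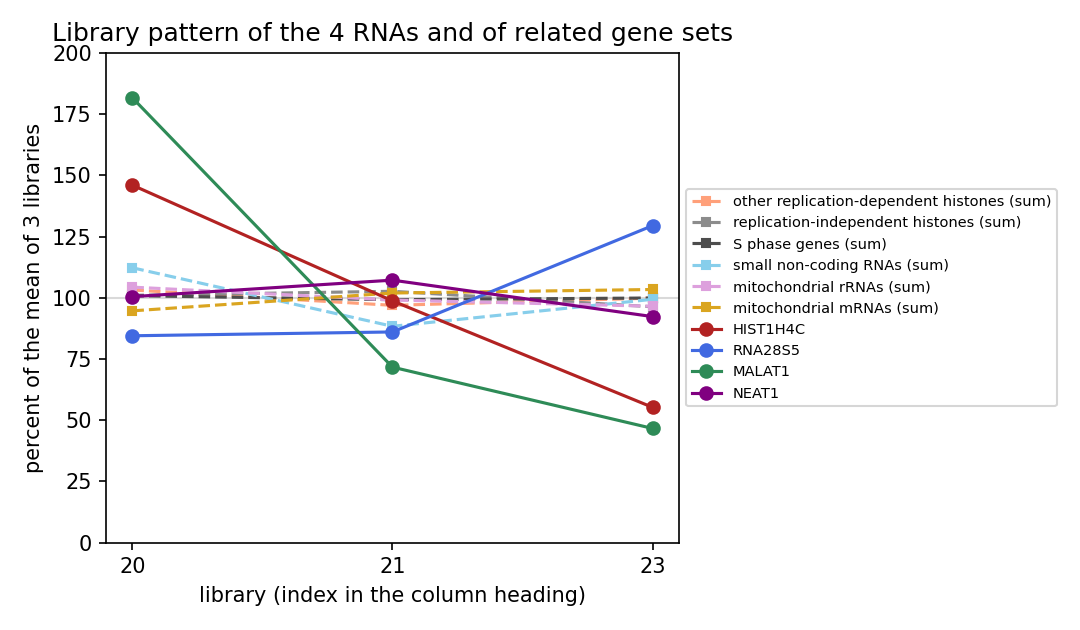
Level in each library as a percent of the mean of 3 libraries (y axis), for the 4 RNAs (solid lines) and for the summed CPM of related gene sets (dashed lines); libraries are named by index and have no order. HIST1H4C spans 146% to 55.3% and MALAT1 182% to 46.6%, whereas the sum of the other replication-dependent histones varies by a factor of 1.06.

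The order of levels was the same by counts and per length. Tags at 5′ ends need not grow with length, so both scales are given. As mean CPM the order was HIST1H4C, RNA28S5, MALAT1, NEAT1. As CPM per 1000 bases of the longest transcript it was 2773 for HIST1H4C, 101 for RNA28S5 (RefSeq length 5070 bases), 10.8 for MALAT1 and 3.14 for NEAT1. On the CPM scale HIST1H4C was 4.07 times RNA28S5 in library 20, 2.70 times in library 21 and 1.01 times in library 23, where 1030 and 1024 counts are within counting error of each other. MALAT1 and NEAT1 are neighbours in the order whose ranges overlap. RNA28S5 lay above both in each library, by 2.52 to 15.1 times MALAT1 and 5.75 to 10.04 times NEAT1.

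The genes whose pattern was nearest were found by the Euclidean distance between log2 CPM deviations from each gene's own mean, over 3 libraries and 5204 genes. For HIST1H4C they were AHI1 (distance 0.072), CLSPN (0.19), DHRS4 (0.28), STAG3L4 (0.30) and C1orf50 (0.31). AHI1, a gene of the primary cilium, had 37.9, 26.3 and 13.6 CPM in libraries 20, 21 and 23. For MALAT1 the nearest were DHRS4 (0.56) and HIST1H4C (0.56), then AHI1 (0.58), CLSPN (0.73) and CHD9 (0.75). These distances are large beside those for RNA28S5, whose nearest was POLR2A (0.010), the largest subunit of RNA polymerase II, with 74.5, 75.1 and 114 CPM. It was followed by CAPNS1, MST4, RUSC1 and YTHDF1 (up to 0.025). NEAT1 lay nearest to BECN1 (0.0020), HYAL2, MEAF6, NDUFA9 and EBAG9 (up to 0.0079). Of all the nearest genes named here, only HIST1H4C, AHI1 and CLSPN were called. AHI1, DHRS4, STAG3L4, C1orf50 and CHD9 had 101 to 133 pooled counts, near the minimum of 100, so counting error is large in their patterns. With 3 libraries, many genes match a mild pattern closely, and few match a strong one.

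MALAT1 and HIST1H4C were both highest in library 20 and lowest in library 23. Of the 61 called genes other than the 4 described here, 12 (19.7%) had that order, as did 15.7% of all 11420 other genes tested. Among the 5200 other genes with at least 100 pooled counts the share was 18.4%. Library 23 was the highest for 33 of the 61 (54.1%), beside 40.01% of all other tested genes, and library 20 for 13 (21.3%), beside 31.6%. The 3 most counted spikes, which carry poly(A) tails, kept their shares of all spike counts: ERCC-00074 had 20.02% to 20.2%, ERCC-00002 had 13.8% to 13.9% and ERCC-00130 had 11.5% to 11.8%.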

How the data were processed

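The authors deposited unnormalized counts for each gene and spike in 1 table. The submitters' processing notes name STAR 2.4.0a, cutadapt 1.2.1 and the build hg19 (GRCh37). Which tool and annotation gave the counts, and whether strand and molecular identifiers were used, is not stated there, so counts may be reads or molecules. Columns carry no replicate number and served as unnumbered replicates of the group. Members, lists and tests were chosen with earlier results of these data known. CPM used endogenous totals, without spikes. The exact binomial test took genes with at least 10 pooled counts at an adjusted p of 0.05, and was tested on simulated data. Patterns used a prior count of 0.5. Named genes are the members, per list the 4 most abundant and up to 8 called (lowest adjusted p), per member the 5 nearest, the 5 largest ratios above 1000 pooled counts and 3 spikes; not all are printed. Sequences are from GENCODE v29 transcripts. Alternatives covered scaling, minimum count, test and leaving out each library. Work used Python 3.11.15, scipy 1.17.1, R 4.3.3, edgeR 4.0.16 and DESeq2 1.42.0.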

Additional observations from a re-analysis of the deposited data

How the results depend on the processing

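The 64 calls between libraries became 114 with DESeq2's median-of-ratios size factors and 250 with spike totals, and 6 when edgeR's goodness of fit allowed for the common coefficient of variation between libraries of 5.67%. The cause of the rise with other scalings was not tested. Leaving out 1 library gave 8 to 59 calls, with 8 without library 23, 42 without library 20 and 59 without library 21. Calls in the gene lists, 14 in all, rose to 18 with median-of-ratios size factors and 21 with spike totals, and fell to 3 under the goodness of fit and to between 6 and 11 when a library was left out. Leaving out a library leaves 1 pair to test. Leaving out a library gave a ratio of highest to lowest of 1.54 to 3.90 for MALAT1, 1.02 to 1.53 for RNA28S5, 1.48 to 2.64 for HIST1H4C and 1.07 to 1.16 for NEAT1. Mean levels moved by less than 1 SD under each scaling. Leaving out a library gave a mean of 55.8 to 119.5 CPM for MALAT1, 55.8 without library 20, and of 929 to 1476 CPM for HIST1H4C. No paired analysis was possible because there is 1 group and the columns carry no replicate number.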
